A study of Mus musculus with 3 samples.

Results

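Rab genes encode small GTPases that direct vesicle traffic between the compartments of the cell. The members described here were the rows of the gene table whose symbol is Rab followed by digits and at most 1 lower-case letter and 1 further digit, with a mean level of at least 1 FPKM over the 3 libraries. FPKM counts fragments per kilobase of transcript, scaled by how many fragments of that library were mapped, and is a level per length. Of 24067 genes in the table, 58 had a symbol of this form and 39 of these passed the level threshold. They stood among 10358 genes that passed the same threshold.

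RNA was measured in primary mouse pre-osteoclasts from bone, the mononuclear cells positive for tartrate-resistant acid phosphatase that precede the fused, bone-resorbing osteoclast. All cells carried an shRNA and had been exposed to MCSF and RANKL, the cytokines that drive osteoclast formation, for 2 days. The 3 groups, with 1 library each, were a static control shRNA culture, a control shRNA culture under orbital shear stress (swirling of the medium) for 24 hours, and an Ift88 shRNA culture under the same shear. The labels give the control shRNA cells as WT and the others as Ift88 knockdown. A static culture with Ift88 shRNA was not analysed here, and a knockdown effect that needs shear cannot be told apart from one that does not. The labels used here give no strain, age or number of mice.

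A Rab protein is bound to GTP and active on a membrane, or bound to GDP and inactive in the cytosol. Guanine nucleotide exchange factors (GEFs) switch it on, GTPase-activating proteins (GAPs) switch it off, and a GDP dissociation inhibitor (GDI) carries the inactive form through the cytosol. Active Rabs recruit effectors that tether, move and fuse vesicles. Osteoclasts rely on this traffic to carry lysosomal contents and membrane to the ruffled border, the face that dissolves bone, and Rab7 and its effector Plekhm1 are known to act there. Some Rabs, Rab8a and Rab11a among them, also serve the primary cilium, the organelle that Ift88 helps to build.

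Most Rabs are attached to membranes by geranylgeranyl lipids on cysteines at the carboxyl end, so the ends of the reading frames are shown for members with the main arrangements. Each line is the last 30 coding bases on the coding strand, 5′ to 3′, with the stop codon, from GENCODE M21 transcripts (build GRCm38). Capitals mark the cysteine codons TGC and TGT among the last 5 codons before the stop.
Rab7: aaggcctccgcagaaagcTGCagtTGTtga
Rab15: gcaaactcttcaaagaccTGCtggTGCtga
Rab4b: gccgtggcccctcagcccTGTggcTGCtga
Rab1b: gtgaagcctgctagcggtggcTGCTGCtag
Rab9: aagcccaagccaaactcatctTGCTGTtga
Rab5c: gccagccggagccagTGCTGCagcaactga
Rab11a: ccaaaggtgcagTGCTGTcagaacatctaa
Rab20: aaacagactagatccgggTGTTGTgcctaa
Rab8b: accagtttcttccgcTGTtctctgctttga
Rab13: aagaagaagaacaagTGCttgttaggctga

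All 39 members had a reading frame in these transcripts, of 194 to 281 codons with a median of 215. A pair of cysteine codons stood among the last 5 in 32 members, and 1 such codon in the other 7. The pair was in the last 2 codons in 12 members, Rab1b, Rab1 and Rab9 among them. It was split by 1 codon at the very end in 11, including Rab7, Rab15, Rab4b and Rab3d. Rab5a, Rab5b, Rab5c and Rab24 had it at codons 3 and 4 from the end, Rab11a, Rab11b and Rab21 at 4 and 5, and Rab34 and Rab20 at 2 and 3. The 7 members with a lone cysteine codon, at codon 4 from the end, were Rab8a, Rab8b, Rab13, Rab18, Rab23, Rab28 and Rab40c. The sequences are a description of the transcripts and were set against no measured value.

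Estimated depth was 35025000 fragments in the static, 35470000 in the sheared control and 35420000 in the sheared Ift88 shRNA library. Ift88 was at 2.98 FPKM in the static control, 2.71 in the sheared control and 1.197 in the sheared Ift88 shRNA library, where it stood at 0.442 times the sheared control (95% counting interval 0.353 to 0.548), in the direction of the label. With 1 library in a group no test was possible, and no difference below has a replicate check. Intervals of ratios are 95% Clopper-Pearson intervals from estimated fragments and cover counting error only. Intervals of single levels, used for the order of neighbours, are exact 95% Poisson intervals from the same fragments. Of 12 osteoclast markers, 9 passed the level threshold, and Calcr, Oscar and Ocstamp, genes linked to mature or fusing osteoclasts, were under 1 FPKM. The summed osteoclast markers were at 693.5, 589.7 and 685.2 FPKM in static, sheared control and sheared Ift88 shRNA cells, but Csf1r (248, 251 and 272 FPKM), also on the macrophage list, and Atp6v0d2 (211, 199 and 182) made up most of it. Of the 9, 4 were at least 1.2-fold lower and 1 higher under shear (2.26% and 1.94% of all genes). With Ift88 shRNA 5 were higher (3.25% of all genes). Acp5, Ctsk and Mmp9, the acid phosphatase and matrix-degrading proteases of the osteoclast, stood at 0.542, 0.428 and 0.559 times static under shear and at 1.57, 1.47 and 2.18 times the sheared control with Ift88 shRNA. Of 11 macrophage markers 10 passed the threshold, with sums of 2715, 2649 and 2675 FPKM, most of it Cd68 (1787, 1799 and 1783). Under shear 2 of the 10 had a ratio above 1 and 8 below 1 (46.0% of all genes were above 1). Under shear 3 of the 10 were at least 1.2-fold lower and 0 higher (2.26% and 1.94% of all genes). With Ift88 shRNA 5 were above 1 and 5 below, and 1 was at least 1.2-fold lower (2.29% of all genes). Markers of neutrophils (68.5, 35.2 and 37.1 FPKM) and stroma (10.6, 7.86 and 10.2) were highest in the static library, while dendritic markers were at 155.5, 137.7 and 158.9. The defining lymphoid genes Cd3e, Ms4a1 and Pax5 and the mast cell genes Cpa3, Mcpt4, Fcer1a and Ms4a2 were listed at 0 in all 3 libraries, as were Flt3 of the dendritic list and Retnlg of the neutrophil list. The lymphoid sum of 119.6, 120.8 and 121.9 FPKM was nearly all Il7r (119.5, 120.7 and 121.9), a receptor also found outside lymphocytes, and the mast cell and megakaryocyte sum was 0.610, 0.613 and 0.697. The part of osteoclast maturity and of other cell types in the Rab values was not tested, and in bulk RNA fewer cells of a type and less RNA per cell cannot be told apart.

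The Rab transcripts of these cells were led by the late endosomal Rab7, the early endosomal Rab5c and the secretory pathway genes Rab1b and Rab1. Summed over the 39 members, Rab transcripts were at 1877.8 FPKM in the static control, 1914.0 in the sheared control and 1947.7 in the sheared Ift88 shRNA library. These sums were 0.351%, 0.353% and 0.368% of all FPKM. The members spanned more than 2 orders of magnitude: 4 had a mean of 100 FPKM or more, 7 lay between 50 and 100, 19 between 10 and 50, and 9 between 1 and 10. The median member was at 29.6, 30.4 and 30.2 FPKM in the same order of libraries.

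**Figure D1:**
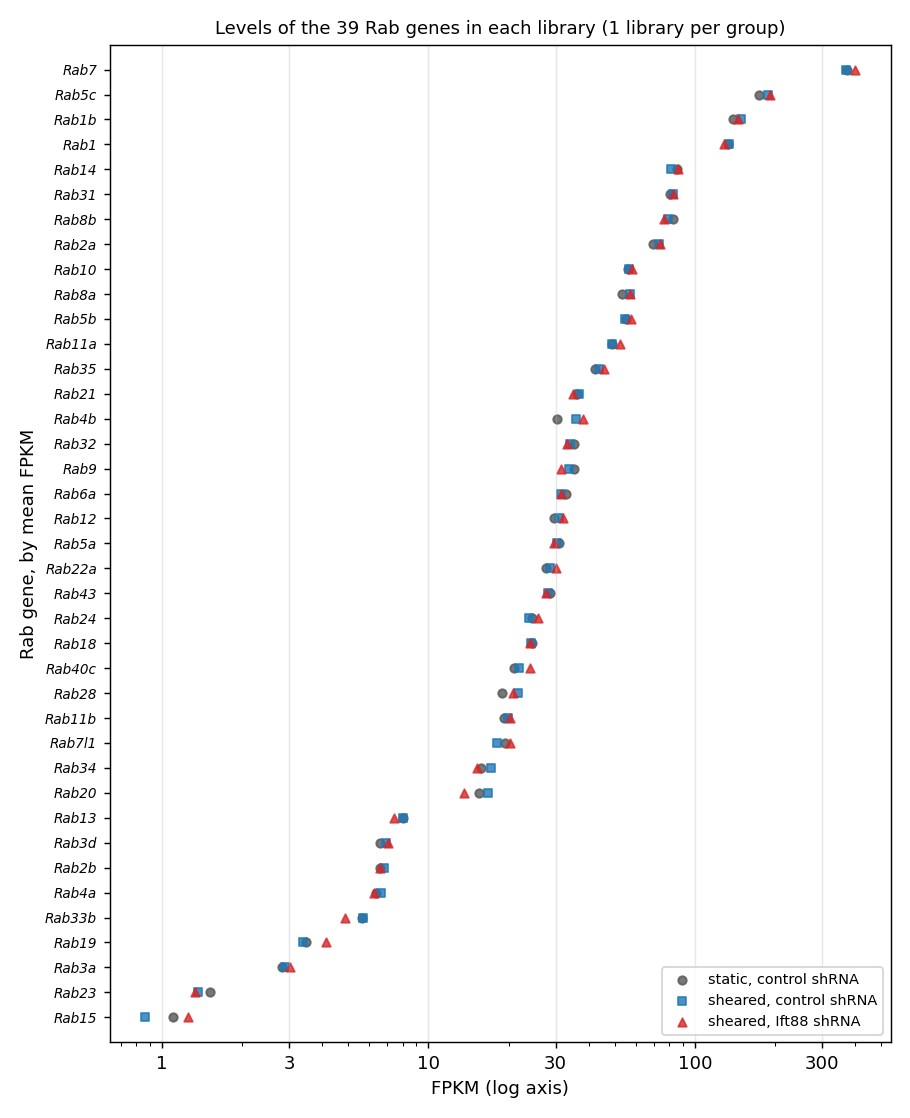
FPKM (log axis) of the 39 Rab genes in the 3 libraries, ordered by mean level, with 1 point per library and no error bar because each group has 1 library. Rab7 stands alone near 370 to 399 FPKM, and for most genes the 3 points lie close together compared with the spread between genes.

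Rab7 (gene ID 19349, chr6:87999106-88045270 in GRCm38) controls the maturation of late endosomes and their fusion with lysosomes. Its level was 370.3 FPKM in static cells, 370.0 in sheared control cells and 398.5 in sheared Ift88 shRNA cells, or 19.7%, 19.3% and 20.5% of the Rab sum. The static and sheared control levels were nearly equal and the Ift88 shRNA level was the highest. Rab5c (chr11:100715003-100738215), of the Rab5 family that governs fusion of early endosomes, followed at 173.9, 188.6 and 191.2 FPKM. Rab1b (chr19:5099207-5106996) was at 139.1, 148.9 and 144.7 FPKM, and Rab1 (chr11:20201412-20226856) was at 133.0, 133.8 and 128.8. Both act in transport from the endoplasmic reticulum to the Golgi.

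The next 8 by level covered recycling, endosomal, secretory and Golgi routes. Rab14, of the route between Golgi and endosomes, was at 85.6, 81.4 and 86.1 FPKM in static, sheared control and sheared Ift88 shRNA cells. Rab31, of trans-Golgi to endosome transport, was at 80.5, 82.8 and 82.5. Rab8b, a regulator of exocytosis, was at 82.6, 78.9 and 76.8. The order of these 3 changed between libraries. Rab2a, which acts between endoplasmic reticulum and Golgi, was at 69.9, 73.2 and 73.9 FPKM. Rab10, of exocytosis and basolateral transport, was at 56.0, 56.3 and 58.1. Rab8a, the paralog of Rab8b, was at 53.4, 57.2 and 57.1. Rab5b stood beside Rab10 and Rab8a at 55.2, 54.8 and 57.6, and Rab11a, of the recycling endosome, was at 49.0, 48.6 and 52.2. Of 37 pairs of neighbours in the order of mean level, leaving out Rab43, which had no interval, 11 had separate counting intervals in all 3 libraries. In 11 pairs the intervals overlapped in all 3, and in 15 they were apart in 1 or 2 libraries. Rab7, Rab5c, Rab1b and Rab1 were each apart from the next in all 3 libraries, whereas Rab8a and Rab5b overlapped in all 3.

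Among Rabs studied in osteoclasts, the lysosomal Rab7 far exceeded the rest. Of 7 on that list, Rab7, Rab9, Rab13 and Rab3d passed the level threshold. Rab9 (chrX:166457251-166479867), which returns mannose 6-phosphate receptors from late endosomes to the Golgi, was at 35.1 FPKM in static, 33.7 in sheared control and 31.5 in sheared Ift88 shRNA cells. Rab13 (chr3:90213715-90226387), known from junctional traffic in epithelia, was at 8.05, 8.02 and 7.41. Rab3d (chr9:21907491-21918199), of secretory vesicles, was at 6.60, 6.91 and 7.06. The values of Rab9 and Rab13 were lowest with Ift88 shRNA and that of Rab3d was highest there. Each interval against the sheared control included 1 (Rab9 0.870 to 1.008, Rab13 0.771 to 1.106, Rab3d 0.932 to 1.122). The other 3 stayed under 1 FPKM in each library. Rab38, of lysosome-related organelles, was at 0.803, 0.975 and 0.957 FPKM, Rab27a, a docking factor of secretory lysosomes, at 0.680, 0.736 and 0.603, and Rab44 at 0.0437, 0.0650 and 0.0290. Estimated fragments for Rab44 were 5.98, 8.997 and 4.01, too few to order its libraries.

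The members just inside the level threshold were Rab15 (mean 1.07 FPKM), Rab23 and Rab3a. Rab23, a negative regulator of Hedgehog signalling, was at 1.52, 1.37 and 1.33 FPKM in static, sheared control and sheared Ift88 shRNA cells, and Rab3a, of regulated exocytosis, was at 2.82, 2.89 and 3.03. Those just outside were Rab42 (0.842, 1.13 and 0.974 FPKM), Rab38 (given above) and Rab39 (0.820, 0.629 and 0.734).

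Grouped by the compartment each is best known for, the late endosome and lysosome group held the largest share of Rab transcripts. Its 7 members took 28.2%, 27.6% and 28.6% of the Rab sum in static, sheared control and sheared Ift88 shRNA cells, most of it Rab7. The 9 members of endoplasmic reticulum and Golgi took 23.6%, 23.8% and 22.9%, and the 7 of the early endosome 22.4%, 22.9% and 22.6%. The 7 recycling members held 12.4%, 12.4% and 12.8%, and the 6 secretory members 11.2%, 10.98% and 10.8%. The shares of these 5 groups stayed within about 1 percentage point across the libraries. Members linked to the cilium, 11 in all, overlap with these groups, and held 18.6%, 18.5% and 18.4%.

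How Rab transcripts stood after flow was read from the 2 control shRNA libraries, sheared over static. No member was 1.2-fold or more apart on the scale of log2(FPKM + 1), which understates differences of low genes, whereas 4.20% of all 10358 genes were (1.94% higher and 2.26% lower). The ratio of FPKM was above 1 for 22 members and below 1 for 17 (46.0% of all genes were above 1). The median log2 ratio was 0.011 for the members and -0.011 for all genes. With libraries rescaled to equal sums of FPKM both moved down alike, to -0.0041 and -0.027. The median size of the log2 ratio was 0.054 for the members and 0.075 for all genes, and this difference between the members and other genes was not tested.

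**Figure D2:**
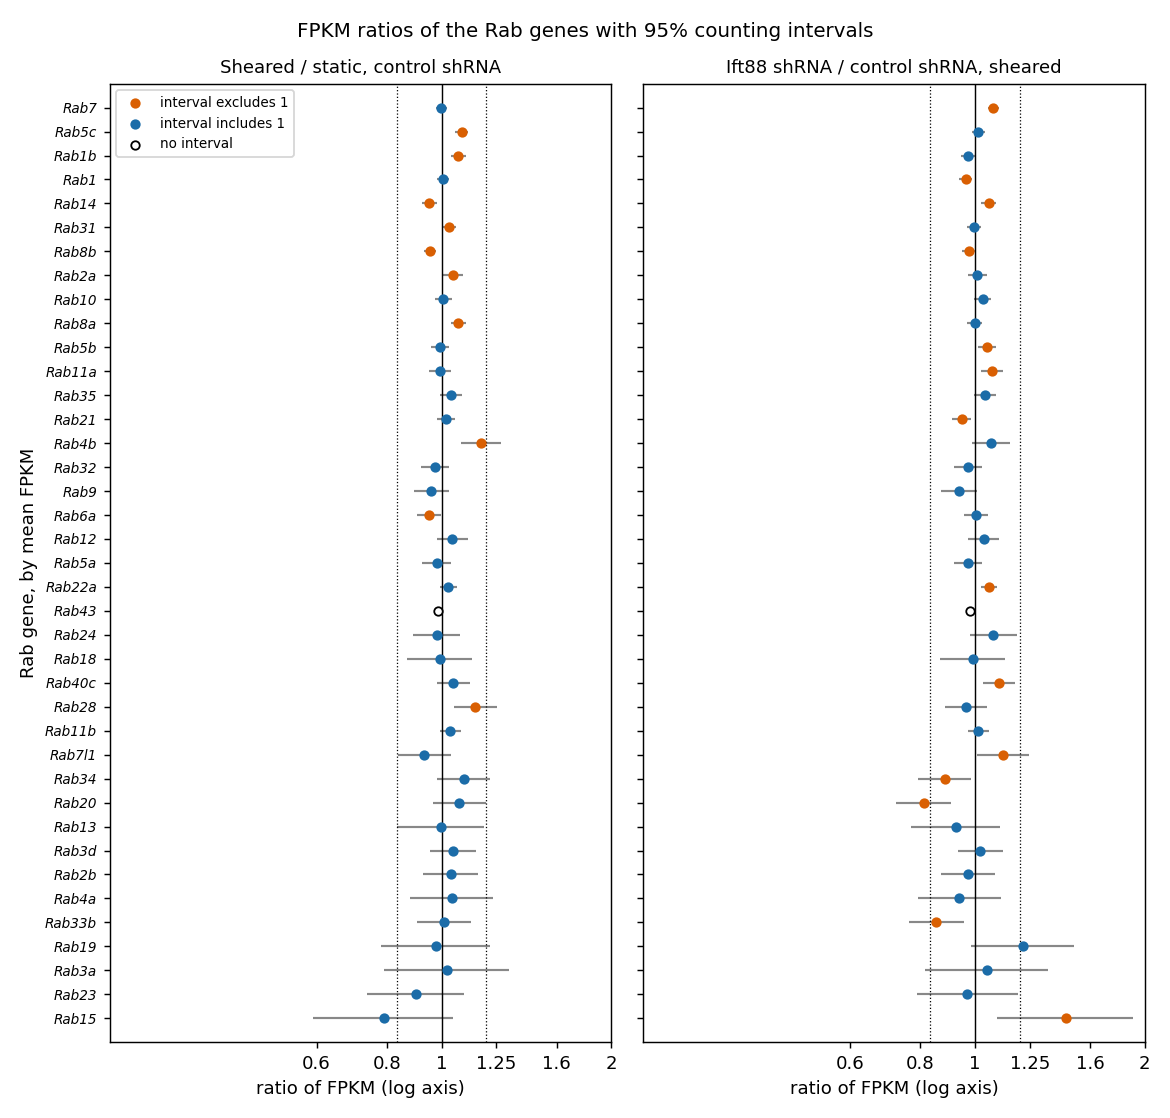
Ratios of FPKM (log axis) for the 39 Rab genes in the shear comparison (left) and the Ift88 shRNA comparison (right), with 95% counting intervals as bars and dotted lines at 1.2-fold. Past the dotted lines lie Rab15 in both panels and Rab19 and Rab20 in the right one, where Rab15 on the left and Rab19 on the right are within 1.2-fold on the log2(FPKM + 1) scale.

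Rab4b and Rab28 had the highest sheared-to-static ratios and Rab15 the lowest. These were singled out after their values were seen. Rab4b (chr7:27168433-27178883), of fast recycling from early endosomes, was at 30.4 FPKM in static, 35.7 in sheared control and 38.1 in sheared Ift88 shRNA cells. Both sheared libraries lay above the static one, with a sheared-to-static ratio of 1.17 (1.08 to 1.28). Its exons overlap those of Gm21983 on the same strand over 65.0% of their length, so its level is uncertain. Rab28 (chr5:41624973-41708193), an atypical Rab linked to the cilium, was at 18.9, 21.6 and 20.8 FPKM, with a ratio of 1.15 (1.05 to 1.251). At a 1.1-fold threshold, chosen after seeing the data, Rab4b and Rab28 were higher and Rab15 lower, 3 of 39 members, against 22.8% of all genes (10.3% higher and 12.4% lower). The counting interval excluded a ratio of 1 for 10 of the 38 members that had one, or 26.3%, against 31.9% of 10130 genes. Of these 10, 7 had a ratio above 1 and 3 below 1, where 13.9% of genes with an interval lay above and 17.9% below. By level, the interval excluded 1 for 0 of 9 members at 1 to 10 FPKM and 3 of 19 at 10 to 50. It did so for 5 of 7 at 50 to 100 FPKM and 2 of 4 at 100 or more. The 19 include Rab43, which had no interval. The shares of members and of all genes were not matched for level.

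By compartment, sheared-to-static ratios lay between 0.9797 and 1.08 in the early endosome group, where 5 of 7 members were above 1 and the median log2 ratio was 0.038. In the late endosome and lysosome group 2 of 7 were above 1, with ratios of 0.931 to 1.09 and a median of -0.028. Recycling members held the widest range, 0.789 for Rab15 to 1.17 for Rab4b, with 4 of 7 above 1 and a median of 0.049. The endoplasmic reticulum and Golgi group (5 of 9 above 1, median 0.0086) and the secretory group (4 of 6 above 1, median 0.017) had small medians too. Over all genes the median was -0.011 and 46.0% were above 1. The 11 cilium-linked members had 6 above 1, ratios of 0.901 to 1.15 and a median of 0.0087. These counts describe 1 pair of libraries and were not tested against each other.

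The Ift88 shRNA comparison set Ift88 shRNA against control shRNA cells, both sheared, and so shares the sheared control library with the shear comparison. A value that is low or high in that library moves both comparisons, in opposite directions. Of the 39 members, 2 were at least 1.2-fold apart, against 5.54% of all genes: Rab15 was higher (as were 3.25% of all genes) and Rab20 was lower (as were 2.29%). Ratios above 1 were found for 20 members and below 1 for 19, where 53.6% of all genes were above 1. The median log2 ratio was 0.0080 for the members and 0.010 for all genes, too close to 0 for its sign to be read. The median size of the log2 ratio was 0.055 for the members and 0.075 for all genes, which differ in level. At a mean of at least 5 FPKM, 1 of 35 members was 1.2-fold apart, against 4.13% of 7549 genes. The part of level was not tested.

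Rab15 (chr12:76797960-76822759), which acts in recycling from early endosomes, was at 1.098 FPKM in static, 0.866 in sheared control and 1.255 in sheared Ift88 shRNA cells. The sheared control was the lowest of the 3, and the Ift88 shRNA library lay close to the static one. The ratio of Ift88 shRNA to control shRNA was 1.45 (1.09 to 1.91), and the sheared-to-static ratio was 0.789 (0.592 to 1.05). These levels rest on an estimated 114, 90.8 and 131 fragments, and Rab15 had the lowest mean level of all members. On the log2(FPKM + 1) scale the Ift88 shRNA difference was 0.27, just past the 1.2-fold threshold. Centred in 10 bins of transcript length it was 0.26, short of 1.2-fold, and a filter at a mean FPKM of 5 left the gene out. Without the Ift88 shRNA library, where it was highest, its mean would fall under the level threshold of 1 FPKM, so its count as a higher member is helped by that filter.

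Rab20 (chr8:11453390-11478640), linked to early endosomes and to maturation of phagosomes, was at 15.5 FPKM in static, 16.7 in sheared control and 13.5 in sheared Ift88 shRNA cells. Here the Ift88 shRNA library was the lowest, and the ratio to the sheared control was 0.811 (0.725 to 0.907), or -0.28 on the log2(FPKM + 1) scale. The sheared-to-static ratio was 1.07 (0.964 to 1.197), an interval that includes 1. Estimated fragments were 649, 706 and 572. With libraries rescaled to equal sums of FPKM the difference was -0.25, short of 1.2-fold. Exons of the opposite-strand gene E230013L22Rik overlap 25.6% of its exon bases, and without knowledge of strand reads of the pair cannot be told apart.

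At 1.1-fold, 6 members were apart, 3 higher (Rab15, Rab19 and Rab7l1) and 3 lower (Rab20, Rab33b and Rab34), against 23.3% of all genes (13.4% higher and 9.92% lower). Those beyond Rab15 and Rab20 were named after their values were seen. Rab19 was at 3.46, 3.38 and 4.11 FPKM in static, sheared control and sheared Ift88 shRNA cells, a ratio of 1.22 (0.983 to 1.501) to the sheared control. Rab33b, a Golgi Rab linked to autophagosome formation, was at 5.64, 5.69 and 4.86, a ratio of 0.854 (0.763 to 0.958). Exons of the opposite-strand gene Gm38160 overlap 18.7% of the Rab33b exon bases. Rab34, required for cilium formation and for lysosome positioning, was at 15.7, 17.2 and 15.2, a ratio of 0.883 (0.793 to 0.985). Rab7l1, the table's symbol for the gene also known as Rab29, was at 19.4, 18.1 and 20.2, a ratio of 1.12 (1.007 to 1.247). Among the abundant members the interval was narrow, as for Rab7, at 1.08 times the sheared control (1.053 to 1.102) from about 15175 fragments. The interval excluded 1 in 14 of 38 members, or 36.8%, against 31.9% of all genes with an interval. Of these, 8 were above 1 and 6 below, where 18.4% of genes with an interval lay above and 13.5% below. By level, the interval excluded 1 for 2 of 9 members at 1 to 10 FPKM and 7 of 19 at 10 to 50. It did so for 3 of 7 at 50 to 100 FPKM and 2 of 4 at 100 or more. These shares too were not matched for level.

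By compartment, 6 of 7 recycling members were above 1 with Ift88 shRNA, with ratios of 0.938 to 1.45 and a median log2 ratio of 0.080. Over all genes 53.6% were above 1 and the median was 0.010. The 6 include Rab15, whose count is helped by the level filter, and Rab4b, whose level is uncertain. The late endosome and lysosome group had 4 of 7 above 1 (ratios 0.883 to 1.12, median 0.049). The early endosome group had 3 of 7 above 1 (0.811 to 1.06, median -0.0045), and the group of endoplasmic reticulum and Golgi had 3 of 9 (0.854 to 1.22, median -0.026). Secretory members were evenly divided, 3 of 6 above 1, with ratios of 0.924 to 1.05. The 11 cilium-linked members had 6 above 1, ratios of 0.883 to 1.22 and a median of 0.020. No test between groups was possible with these libraries.

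**Figure D3:**
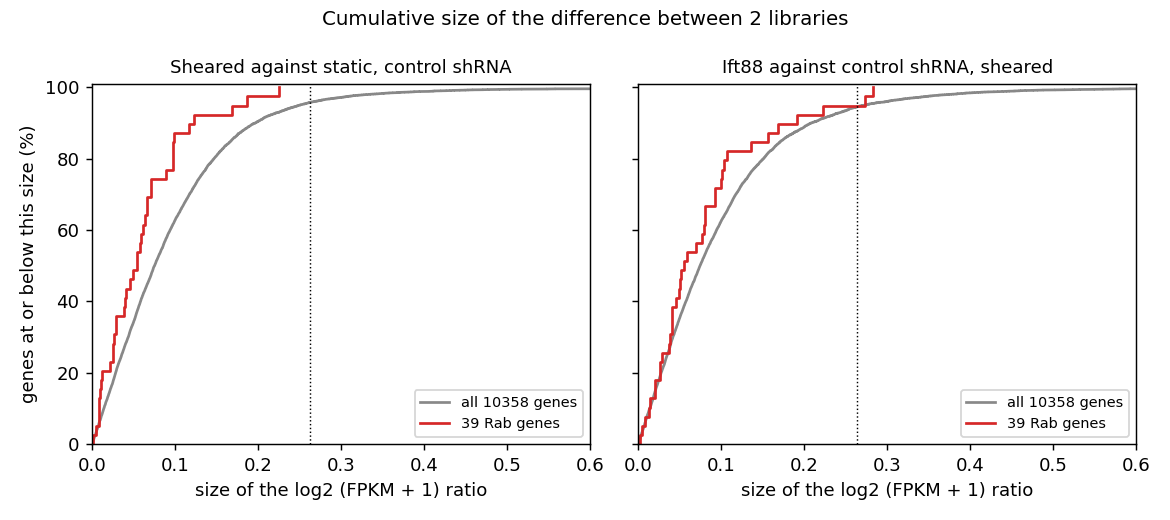
Share of genes (vertical axis, percent) whose log2(FPKM + 1) ratio is no larger in size than the value on the horizontal axis, for the 39 Rab genes and for all 10358 genes, with a dotted line at 1.2-fold. The curve of the Rab genes lies above that of all genes over most of both panels and is complete before the dotted line in the shear panel. The curves are not matched for level.

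Across the 3 libraries, the highest level of a member exceeded its lowest by a median of 1.07 times, with a range of 1.02 to 1.45, where the median over all genes, not matched for level, was 1.11. Rab15 (1.45), Rab4b (1.254), Rab20 (1.23), Rab19 (1.22) and Rab33b (1.17) varied most, and Rab18 least at 1.02. These were picked by that range. The sheared Ift88 shRNA library held the highest value for 19 members, the sheared control library for 11 and the static library for 9, where over all genes the shares were 37.3%, 25.3% and 37.4%. The lowest value was in the sheared Ift88 shRNA library for 14 members, in the sheared control for 9 and in the static library for 16, where all genes were split 33.8%, 32.9% and 33.3%. These counts were not tested.

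The proteins that switch, lipidate and use Rabs were described from 7 lists. Among the GEFs, 44 of 49 passed the level threshold. None was 1.2-fold apart in the shear comparison (4.20% of all genes), while with Ift88 shRNA 1 was higher and 3 were lower (3.25% and 2.29% of all genes). The higher one, Dennd4a, an exchange factor for Rab10, was at 2.48 FPKM in static, 2.38 in sheared control and 3.30 in sheared Ift88 shRNA cells, a ratio of 1.38 (1.255 to 1.52) to the sheared control. The subunits of the TRAPP complex, which activates Rab1, included Trappc1 at 61.4, 69.2 and 55.1 FPKM, with a ratio of 0.797 (0.734 to 0.863). Trappc2 was at 8.38, 9.09 and 7.15, a ratio of 0.786 (0.683 to 0.905). The other lower one was Trappc4, named because it completes the count, at 38.95, 37.5 and 31.1 FPKM and a ratio of 0.829 (0.764 to 0.897). These 3 were picked by size. Of all 14 TRAPP subunits, 9 had a ratio below 1 and 5 above 1, and 7 had their lowest level with Ift88 shRNA. Trappc3, for example, was at 58.3, 63.8 and 64.9 FPKM, highest with Ift88 shRNA.

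Of 38 GAPs, 34 passed the threshold, and in the shear comparison 1 was higher and 1 lower (1.94% and 2.26% of all genes), close to the background. Evi5l was at 3.04, 4.44 and 3.80 FPKM in static, sheared control and sheared Ift88 shRNA cells, a sheared-to-static ratio of 1.46 (1.17 to 1.81). Tbc1d4, the Akt substrate that restrains glucose transporter vesicles in muscle and fat, was at 5.83, 4.598 and 4.65, a ratio of 0.789 (0.727 to 0.858). In both sheared libraries Evi5l was above, and Tbc1d4 below, the static level. With Ift88 shRNA 0 of the 34 was 1.2-fold apart (5.54% of all genes).

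All 13 genes of prenylation, GDI and membrane delivery passed the level threshold. None was 1.2-fold apart in either comparison, where 4.20% (shear) and 5.54% (Ift88 shRNA) of all genes were. Gdi2, a GDP dissociation inhibitor, was at 153, 150.4 and 146 FPKM in static, sheared control and sheared Ift88 shRNA cells. Chm, the escort protein that presents Rabs for lipid attachment, was at 5.74, 5.64 and 5.70. The subunits of the geranylgeranyl transferase, Rabggta (9.22, 8.66 and 9.52) and Rabggtb (26.6, 24.3 and 22.8), were at their highest in different libraries. Rabac1, which helps to release Rabs from GDI, was at 186, 218 and 207 FPKM, with a sheared-to-static ratio of 1.17 (1.13 to 1.22).

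Of 55 effectors in the table, 42 passed the threshold. Rilp, which links Rab7 to dynein, was at 5.68, 4.49 and 4.98 FPKM in static, sheared control and sheared Ift88 shRNA cells, a sheared-to-static ratio of 0.791 (0.652 to 0.9501), and was the only listed effector 1.2-fold apart in that comparison. Optn, an autophagy receptor that binds Rab8, was the only one with Ift88 shRNA, at 21.1, 21.9 and 16.9 FPKM and a ratio of 0.772 (0.718 to 0.829). Plekhm1, the Rab7 effector of the ruffled border, was at 60.3, 59.8 and 57.3, and Rabep1, the Rab5 effector rabaptin, at 19.0, 17.6 and 19.1. All 9 genes of the tethering complexes HOPS and CORVET passed the threshold, and 0 was 1.2-fold apart in either comparison. Beside these effector and tethering counts, 4.20% of all genes were 1.2-fold apart under shear and 5.54% with Ift88 shRNA.

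Of 33 SNAREs, the proteins that fuse membranes, 31 passed the threshold. Stx7, of late endosome fusion, was the only SNARE 1.2-fold apart, at 72.0, 67.1 and 55.2 FPKM in static, sheared control and sheared Ift88 shRNA cells, a ratio of 0.823 (0.791 to 0.856) to the sheared control. Of 28 genes of the related ARF, ARL and SAR1 families, 26 passed the threshold. Arf4, a Golgi GTPase that directs cargo toward the cilium, was at 79.6, 77.3 and 54.0 FPKM, with a ratio of 0.699 (0.670 to 0.729). It was the only 1.2-fold difference of that list in either comparison, and it lay in the Ift88 shRNA comparison. Beside the SNARE and ARF counts, the shares over all genes were 4.20% for shear and 5.54% for Ift88 shRNA.

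**Figure D4:**
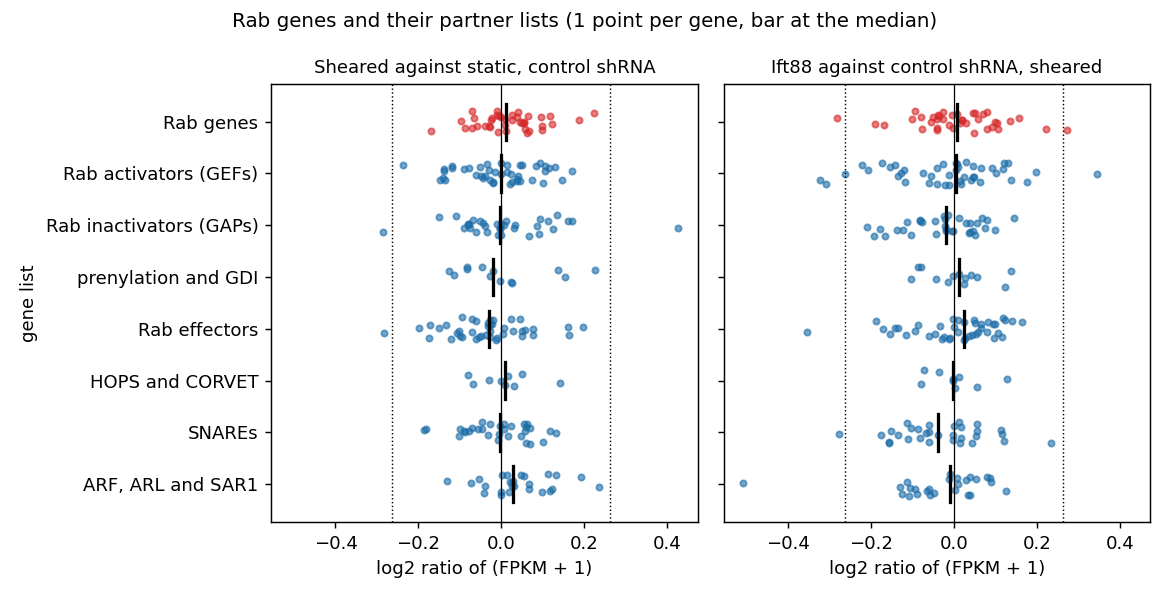
Log2 ratios of (FPKM + 1) in the shear comparison (left) and the Ift88 shRNA comparison (right), with 1 point per gene, a bar at each list's median and dotted lines at 1.2-fold. All medians lie close to 0, and the points past the dotted lines are single genes, with Arf4 the furthest to the left in the right panel.

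Promoter sequence was examined because the transcription factors TFEB and MITF, regulators of lysosomal genes and of osteoclasts, bind the E-box CACGTG and its longer form with GT before and AC after it, here called the CLEAR element. Windows from 250 bases before to 50 after the start site were matched to RefSeq (GRCm38) for 36 of 39 members. Both motifs read the same on the 2 strands, and each CLEAR element contains an E-box. The E-box was in 5 of 36 members (13.9%): Rab21, Rab5a, Rab24, Rab20 and Rab23. Counted by gene in the same way, it was in 8.09% of all 27025 genes and in 12.5% of 8393 genes that passed the level threshold. Counted by promoter, it was in 7.15% of all 32851. The CLEAR element was in 3 members (8.33%), Rab21, Rab5a and Rab24. It was in 0.37% of all genes, in 0.917% of the genes that passed and in 0.326% of promoters. A match is a description and does not show binding. Rab5a has a further E-box, not shown, 235 bases before the start site and outside a CLEAR element. For Rab21, Rab5a and Rab20, 30 bases around an E-box (capitals) read as follows, on the gene's strand.
Rab21, chr10:115315604-115315633, minus strand: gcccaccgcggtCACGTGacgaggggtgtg
Rab5a, chr17:53479127-53479156, plus strand: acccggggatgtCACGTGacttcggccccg
Rab20, chr8:11478669-11478698, minus strand: cggccgggcaccCACGTGgtcgcagggctg
Rab21 was at 36.2, 36.9 and 34.9 FPKM and Rab5a at 31.0, 30.4 and 29.5 in static, sheared control and sheared Ift88 shRNA cells, and neither was 1.1-fold apart in a comparison.

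Some Rab values are uncertain because the reads can belong to another gene. Opposite-strand exons of expressed genes overlap 62.4% of the exon bases of Rab24 (Prelid1, mean 244.7 FPKM), 19.0% of Rab6a (Mrpl48, 31.1 FPKM), 4.68% of Rab2b (Tox4), 4.07% of Rab10 (Rab10os), 1.65% of Rab22a (Mir6340) and 1.30% of Rab3a (Mpv17l2). Among opposite-strand genes with no listed level, Gm43766 overlaps 59.3% of Rab2b, E230013L22Rik 25.6% of Rab20 and Gm38160 18.7% of Rab33b. Rab24 was at 24.4, 23.9 and 25.8 FPKM in static, sheared control and sheared Ift88 shRNA cells. Transcripts of Rab43 share 97.3% of their 50-base stretches with Gm45140, and those of Rab4b share 80.9% with Gm21983, both on the same strand. Pseudogene copies share 13.1% with Rab5b (Gm13991), 11.5% with Rab7 (Rab7-ps1), 9.16% with Rab11b (Rab11b-ps2) and 7.87% with Rab9 (Rab9b-ps1). Rab33b shares 6.39% with H2-T23.

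The remaining members had these levels in static, sheared control and sheared Ift88 shRNA cells. Between 25 and 50 FPKM were Rab35 (42.0, 43.6 and 45.5), Rab32 (35.05, 34.1 and 33.1), Rab6a (32.96, 31.3 and 31.5), Rab12 (29.6, 30.9 and 32.0), Rab22a (27.7, 28.5 and 30.2) and Rab43 (28.6, 28.2 and 27.7). Rab35 serves recycling and cytokinesis, Rab32 lysosome-related organelles, Rab6a retrograde Golgi transport, Rab12 degradation of receptors and Rab22a endosomal sorting. Rab40c (20.9, 21.9 and 24.1), Rab18 (24.5, 24.3 and 24.1) and Rab11b (19.2, 19.9 and 20.2) lay near 20 FPKM. Rab18 is known from lipid droplets and Rab40c from a ubiquitin ligase. Under 10 FPKM were Rab2b (6.56, 6.80 and 6.60) and Rab4a (6.36, 6.64 and 6.23), the less abundant partners of Rab2a and Rab4b. Of the 19 Rab genes under the threshold, Rab27b, Rab40b, Rab9b, Rab39b, Rab25 and Rab3b had means under 0.03 FPKM.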

How the data were processed

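Messenger RNA of 3 libraries, 1 per group, was measured, and the authors deposited 1 table of FPKM for 24067 genes. According to the submitters' processing notes, the tools were TopHat2 2.0.13, Cufflinks 2.2.1, bcl2fastq 1.8.4 and Trimmomatic 0.32, and the build was mm10. Settings and the use of strand are not given in the submitters' notes used here. Because FPKM is relative to the library, abundant genes move all others, and Cufflinks divides reads between near-identical copies by estimation.

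A mean of 1 FPKM or more was required, which 10358 genes met. Ratios were log2 of (FPKM + 1) over (FPKM + 1), counted at 1.2-fold, and ratios printed beside genes are of FPKM without the added 1. With 1 library per group no test was run. Depth came from the spacing between low values in 14133 genes with a transcript of at least 1000 bases. Of values up to 10 fragments, 64.5%, 63.6% and 62.7% were whole within 0.1, so fragments are estimates. They were rounded to whole counts for the exact counting intervals, and no count model was fitted for a test. Fragments were taken from the shortest matched transcript of each gene, less 200 bases. Intervals needed over 500 bases, so Rab43, with a shortest transcript of 325 bases, had none. For a gene with longer transcripts too, fragments can be underestimated and intervals too wide. The depth estimate was tested on simulated whole counts. Because many low values here were not whole, that test cannot show how well the estimate holds for these libraries.

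Named were Ift88, the 12 highest members, members at least 1.2-fold apart, Rabs studied in osteoclasts, the 3 members nearest the level threshold on each side, the 3 largest differences per partner list among those 1.2-fold apart, and partners chosen for their roles, of which 1 is not reported here. The members and lists were chosen with earlier results of these data known. Gene IDs were matched to RefSeq (23987 matched). Protein sequences were not analysed here. Alternatives covered the pseudocount, filter, scaling, length and fold threshold. Python 3.11.15, pandas 2.3.3, numpy 2.4.6, scipy 1.17.1 and matplotlib 3.10.9 were used.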

Additional observations from a re-analysis of the deposited data

How the results depend on the processing

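No paired analysis was possible because each group had 1 library. In the shear comparison the count of members 1.2-fold apart was 1 (Rab15, lower) with a pseudocount of 0.1 and with no pseudocount. The shares over all genes were then 7.44% and 7.76%. At 1.1-fold, a threshold chosen after seeing the data, the count was 3 (22.8% of all genes). Under the other alternatives it was 0, where 2.94% to 4.35% of genes were 1.2-fold apart and 0.454% were 1.5-fold apart. In the Ift88 shRNA comparison the count was 3 with a pseudocount of 0.1 and with no pseudocount (9.08% and 9.47% of all genes). These were Rab15 and Rab19, higher, and Rab20, lower. The count was 1 with a mean FPKM of at least 5 (Rab20, since Rab15 is then not included), against 4.13% of genes. With equal sums of FPKM it was 1 (Rab15), against 6.23%. Centred in 10 bins of transcript length it was 1 (Rab20), against 5.45%. At 1.5-fold it was 0 (0.483% of all genes). At 1.1-fold, chosen after seeing the data, it was 6 (23.3%). The median log2 ratio of the members ranged from -0.0041 to 0.025 for shear and from -0.0042 to 0.039 for Ift88 shRNA; rescaling and centring shift all genes with the members. Depth limits Rab15, with 90.8 to 131 estimated fragments, and the Rab genes under 1 FPKM most.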
